A study of Mus musculus with 14 samples.

Results

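YEATS2, YEATS4 (GAS41), MLLT1 (ENL) and MLLT3 (AF9) are the mammalian proteins that carry a YEATS domain, a fold that binds acylated lysines on histone tails. The 4 mouse genes Yeats2, Yeats4, Mllt1 and Mllt3 were followed here through 2-cell embryos. In these embryos lactate supply had been altered or mRNA for histone H3 changed at lysine 18 had been injected. The genes were chosen by name, with their counts in these libraries already in view, so their levels and differences are a description. Where the fits across all genes count how many of the 4 passed a threshold, that count stands beside the share of all genes that did, and nothing is read from it. All 4 were found among the 56923 genes counted, and each was listed once.

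The YEATS domain accepts acetyl-lysine and, because its aromatic pocket is open at the end, also bulkier acyl groups such as crotonyl-lysine. The proteins sit in different machines. MLLT1 and MLLT3 bring the super elongation complex, with its kinase CDK9, and the methyltransferase DOT1L to transcribed genes. YEATS2 belongs to the ATAC acetyltransferase complex, and YEATS4 is shared by the TIP60-p400 and SRCAP complexes, which handle the histone variant H2A.Z. Histone lactylation is an acyl mark made from lactate through lactyl-CoA, and the 2-cell stage is when the mouse embryo starts large-scale transcription of its own genome while RNA stored in the oocyte is being cleared.

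RNA was sequenced from ICR mouse embryos in 14 libraries of 5 embryos each, with 2 libraries for each of 7 conditions. In the G&N condition embryos were cultured with 5 µM Gne140, an inhibitor of both lactate dehydrogenases, 50 µM NMN, a precursor of NAD, and 10 mM lactate; in G&N-L the same 2 compounds were used without lactate. Both were collected at the early 2-cell stage (30 h after hCG) and the late 2-cell stage (54 h after hCG). The paper states that lactate was withdrawn at the late zygote stage for both collections. Late G&N-L embryos had thus been without it for longer than early ones. Stage and time without lactate cannot be told apart where early and late G&N-L are compared. In a further late G&N-L condition, 1 mM lactyl-CoA (Lac-CoA) had been injected into the zygote, and in the remaining late conditions mRNAs for the 3 histone forms H3.1, H3.2, H3.3 had been injected at 200 ng/µL, either H3K18R (lysine 18 replaced by arginine) or WT, with no Gne140 or NMN stated. No library was described as uninjected embryos in plain medium. No mock injection was among the G&N-L libraries, so the injection itself and its content cannot be told apart in the Lac-CoA comparison. The early libraries titled as lacking lactate carry a treatment label that names Gne140 and NMN, those titled G&N carry a label that names Gne140 alone, and the Lac-CoA libraries are labelled CoA; the titles were followed. Nothing states that the libraries of a condition came from separate collections of embryos, so the spread between them may be technical.

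Library totals ran from 20350427 to 61275465 counts, and the chi-square of replicate counts was between 51.9 and 216 times its degrees of freedom, so the 2 libraries of a condition were not copies of each other. Markers of cumulus cells, the somatic cells that surround the oocyte, summed to between 3.43 and 40.9 CPM (counts scaled to a common library size, on TMM-adjusted totals), with between 2 and 6 of the 12 markers holding any count in a library. Mitochondrial genes took between 2.17% and 3.85% of counts in the early libraries, between 5.65% and 6.84% in the late G&N, G&N-L and Lac-CoA libraries, and between 10.6% and 12.2% in the H3K18R and WT libraries. H3c1, a gene for H3.1, held 43643 and 83390 counts in the libraries labelled H3K18R but 4 and 3 in those labelled WT, and between 0 and 66 elsewhere. Injection of H3.1 mRNA, which the methods describe for the WT embryos too, is therefore not borne out by H3c1 in the libraries labelled WT. H3c1 is only 1 of the H3 genes. Summed over H3 genes, WT libraries held 6040 and 5921 CPM and H3K18R libraries 8238 and 8239 CPM. The sums were 4058 to 5291 CPM in late G&N, G&N-L and Lac-CoA libraries and 6290 to 8417 CPM in early ones. Whether the WT mRNA was counted at another H3 gene was not tested. The WT libraries are called WT, and counted as injected, by the description in the methods.

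In the GENCODE vM39 annotation of GRCm39, Yeats2 (ENSMUSG00000041215) lies on chromosome 16 at 19959803 to 20053255 on the plus strand, Yeats4 (ENSMUSG00000020171) on chromosome 10 at 117051047 to 117060432 on the minus strand, Mllt1 (ENSMUSG00000024212) on chromosome 17 at 57194061 to 57242685 on the minus strand, and Mllt3 (ENSMUSG00000028496) on chromosome 4 at 87687837 to 87951610 on the minus strand. The results turn mainly on Yeats2 and Mllt3. Their levels differed in opposite directions between the late embryos described as injected and the other late embryos. The 250 bases before their annotated starts are shown so that the composition of the 2 promoters can be compared. The sequences are from RefSeq on GRCm38.p6, at chr16:20140813-20141062 on the plus strand for Yeats2 and chr4:88033408-88033657 on the minus strand for Mllt3, read 5′ to 3′. Capitals mark matches to CCAAT or GGGCGG on either strand, so a match on the other strand is read as its reverse complement.
Yeats2: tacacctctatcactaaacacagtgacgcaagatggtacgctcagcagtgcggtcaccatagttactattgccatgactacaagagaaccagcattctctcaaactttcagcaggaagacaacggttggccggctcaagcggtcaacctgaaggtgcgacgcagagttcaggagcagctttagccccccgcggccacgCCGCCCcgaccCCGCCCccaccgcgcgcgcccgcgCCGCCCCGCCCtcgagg
Mllt3: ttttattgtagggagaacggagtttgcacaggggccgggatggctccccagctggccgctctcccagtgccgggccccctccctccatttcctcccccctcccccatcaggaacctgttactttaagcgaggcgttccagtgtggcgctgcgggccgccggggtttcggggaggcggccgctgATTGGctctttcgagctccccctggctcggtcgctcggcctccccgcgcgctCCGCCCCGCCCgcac
Over windows of 300 bases that add the 50 bases after the start, Yeats2 was 63.67% GC with 30 CpG and 6 GGGCGG matches, and Mllt3 was 70.33% GC with 29 CpG and 3 such matches, overlapping matches included. The Mllt1 window was 77.67% GC with 46 CpG and 7 matches, and the Yeats4 window 56.33% GC with 17 CpG and 2 matches. The medians over 32851 RefSeq windows were 52.67% GC and 7 CpG, and 35.66% of windows held GGGCGG. The motif CCAAT was matched once each in the Yeats4, Mllt1 and Mllt3 windows and not in that of Yeats2, against 37.41% of all windows. None of the 4 windows held TATAAA, which 13.62% of all windows did. The same was true of the nuclear receptor motif AAGGTCA (4.718% of windows) and of the homeobox motif GGATTA (7.062%). Another RefSeq start of Mllt3 had 44.67% GC, 4 CpG and no GGGCGG match.

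Mllt3 took the most counts of the 4 genes in every library, and its own level was lowest in the late embryos described as injected. In the early libraries it stood at 734 and 581 CPM with lactate and at 685 and 589 CPM without. Late G&N embryos had 873 and 691 CPM and late G&N-L embryos 652 and 668 CPM. The late libraries overlapped the early ones in both cultures.

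In the late embryos described as injected, Mllt3 stood at 319 and 300.2 CPM with Lac-CoA and at 327 and 479 CPM with H3K18R. It stood at 300.2 and 229 CPM in those called WT. All 6 of these libraries lay below all 8 of the others, of which the lowest was at 581 CPM. The group mean was 2.53 times lower with Lac-CoA than in late G&N embryos (309 ± 12.9 against 782 ± 129, SD, n = 2) and 2.95 times lower with WT mRNA (265 ± 50.4). In the order of its group means, the neighbours with overlapping libraries were early G&N-L with early G&N and early G&N with late G&N-L. Between late G&N-L and Lac-CoA, which were cultured alike, injection and its content cannot be told apart. In the H3K18R and WT groups the culture and the share of mitochondrial counts also differ from those of the other late groups, and their parts in the level were not tested.

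Yeats2 had the widest range of the well-counted members and was highest in the late embryos described as injected. It was lowest in the early embryos, at 4.30 and 5.19 CPM with lactate and 7.08 and 4.67 CPM without. Late G&N embryos had 10.5 and 15.4 CPM and late G&N-L embryos 18.4 and 17.8 CPM, so every late library lay above every early library. Embryos described as injected were higher again, with 39.3 and 22.7 CPM for H3K18R and 28.0 and 67.1 CPM for WT. Those with Lac-CoA had 125 and 213 CPM.

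In raw counts, Yeats2 went from 707 and 683 in the late G&N-L libraries to 5442 and 9241 in the Lac-CoA libraries, whose totals differed far less. The Lac-CoA mean of 169 ± 62.1 CPM was 13.1 times the late G&N mean of 12.95 ± 3.50 CPM (SD, n = 2) and 3.56 times the WT mean of 47.6 ± 27.6 CPM. Among genes with a count, Yeats2 stood at the 73.5th percentile by CPM in late G&N embryos and at the 96.3rd in Lac-CoA embryos. In the order of the group means, only early G&N with early G&N-L, and H3K18R with WT, were neighbours whose libraries overlapped.

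Genes on the opposite strand overlap Yeats2, and the strand was not stated to have been used in counting. Of these, Map6d1 held 111 and 0 counts in the Lac-CoA libraries, and the pseudogene Gm10241 held 514 and 1260 counts there against 271 and 480 in late G&N-L. In the Lac-CoA libraries both stayed below Yeats2, at 5442 and 9241 counts. Gm10241 was also below Yeats2 in late G&N-L (271 and 480 against 707 and 683) and late G&N replicate 1 (196 against 383). The same held in WT (358 and 555 against 644 and 2176). It was above Yeats2 in late G&N replicate 2 (1105 against 672) and in H3K18R (867 against 821 and 1059 against 519). It also exceeded Yeats2 in all 4 early libraries, with 221 against 103 counts in early G&N-L replicate 2. The part of reads from these genes in the lower Yeats2 counts was not tested.

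Yeats4 varied least. Its CPM was 141 and 107 in early G&N, 110 and 85.7 in early G&N-L, 101 and 101 in late G&N, 146 and 96.0 in late G&N-L, and 120 and 119 with Lac-CoA. With H3 mRNA it was 82.5 and 72.8 CPM for H3K18R and 62.4 and 66.8 CPM for WT, and these 4 libraries lay below the other 10, of which the lowest was at 85.7 CPM. The WT mean of 64.6 ± 3.12 CPM was 1.57 times lower than that of late G&N (101 ± 0.195, SD, n = 2). In the order of its means, WT and H3K18R did not overlap their neighbours, nor did late G&N overlap Lac-CoA, while the other neighbours overlapped.

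Mllt1 was close to the limit of detection. Its counts were 31 and 23 in early G&N, 15 and 0 in early G&N-L, 0 and 30 in late G&N, 0 and 14 in late G&N-L, 14 and 53 with Lac-CoA, 1 and 0 with H3K18R, and 2 and 56 with WT mRNA. In 4 of the 14 libraries it was at 0, which allows up to 3 counts, or between 0.0780 and 0.136 CPM in those libraries, for counting error only. Neighbouring groups overlapped all along the order of its means. Acsbg3, on the opposite strand, overlaps Mllt1 and was at 0 in every early library and between 25 and 597 counts in the late ones.

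**Figure D1:**
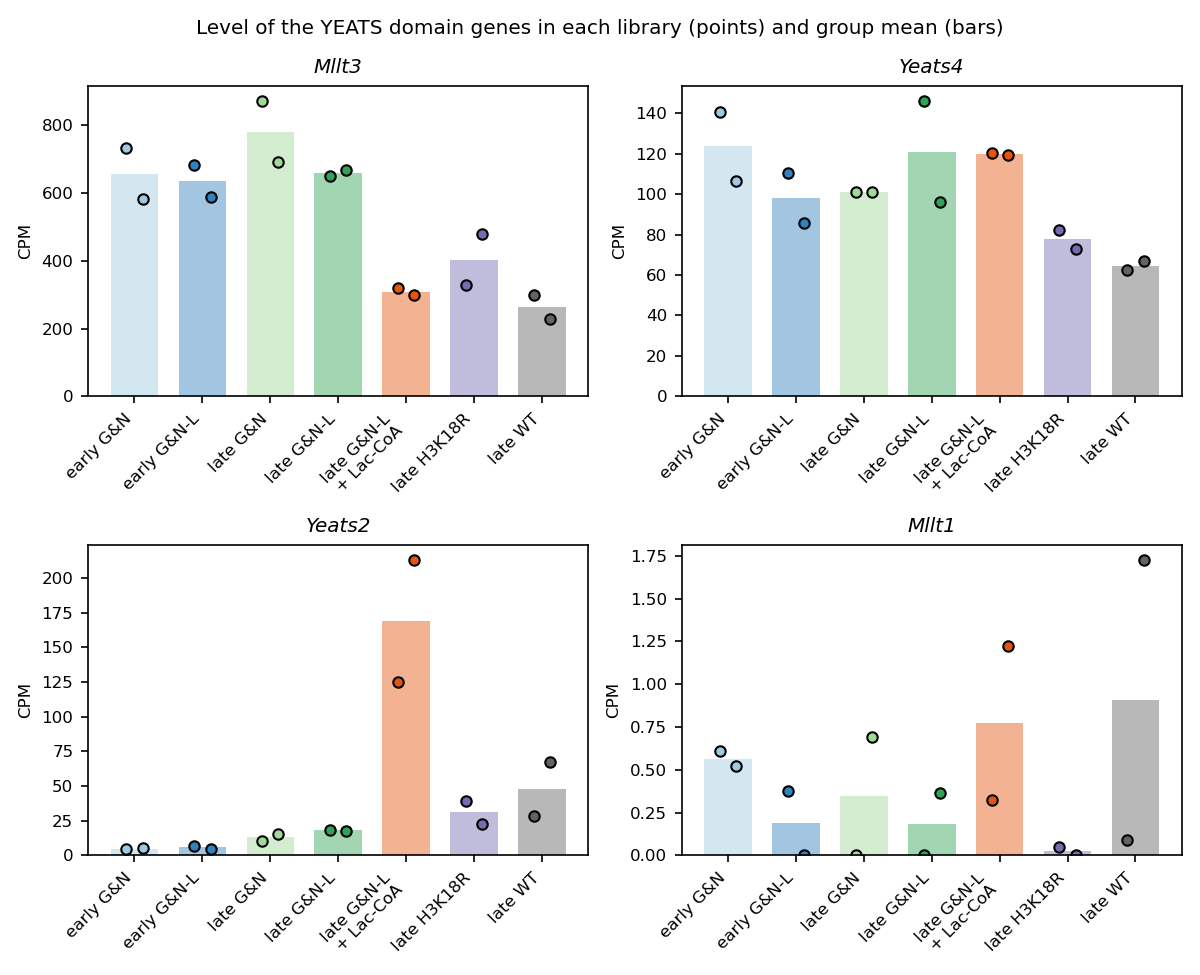
Level of each gene in CPM (vertical axis, linear, from 0, a scale of its own for each gene) in the 7 conditions, with a point for each of the 2 libraries and a bar at their mean. Mllt3 is between 229 and 479 CPM in the 6 libraries described as injected and at least 581 CPM in the others. Yeats2 reaches 125 and 213 CPM with Lac-CoA.

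Levels were compared between the genes only per kilobase of transcript. With the union of annotated exons as length, the group means of Yeats4 lay between 40.4 and 77.4 CPM per kb and those of Mllt3 between 21.3 and 62.8 CPM per kb. Yeats2 lay between 0.316 and 11.3 CPM per kb, and Mllt1 between 0.00314 and 0.119 CPM per kb. With the longest annotated transcript as length, Mllt3 lay between 41.3 and 122 CPM per kb against 42.9 to 82.1 for Yeats4, so the order of these 2 genes depended on the length used. On either length Yeats4 was above Mllt3 with Lac-CoA (75.0 against 24.9 CPM per kb by exon union, and 79.5 against 48.3 by longest transcript).

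**Figure D2:**
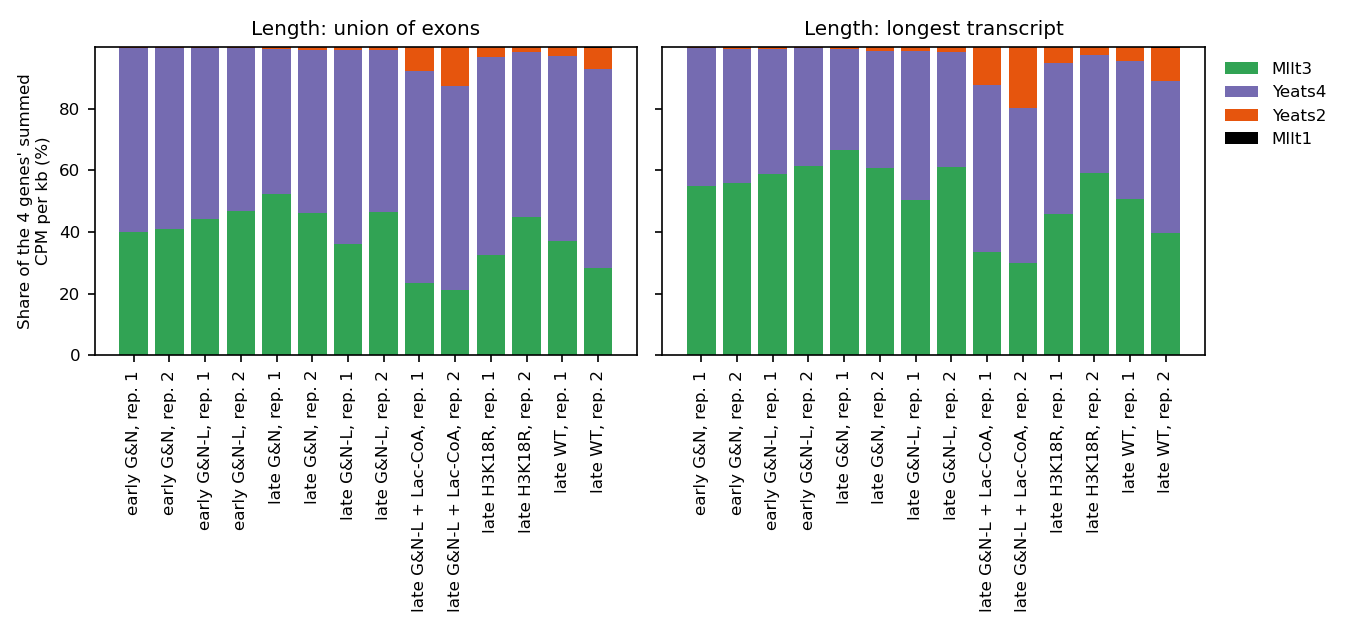
Share of each gene in the summed CPM per kb of the 4 genes (vertical axis, percent) in each of the 14 libraries, with length as the union of exons (left) or the longest transcript (right). Yeats2 takes a visible share mainly in the Lac-CoA, H3K18R and WT libraries, and the share of Mllt3 is smallest with Lac-CoA on either length.

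Between the early and late stages, the question is whether readers change as the embryo takes over transcription. In G&N culture Yeats2 was higher in late embryos by 1.36 on the log2 scale (edgeR, SE 0.572) and Yeats4 lower by 0.35 (SE 0.245), and for both genes the libraries did not overlap. Mllt3 differed by 0.19 (SE 0.247), with overlapping libraries. By adjusted p none of the 4 members tested was called in edgeR, against 8.18% of all genes higher and 5.47% lower; 0 members had an unadjusted p under 0.05, against 6691 of 19443 genes, and DESeq2 called 0 members, against 30.5% of genes. Libraries did not overlap for 2 of 4 members, against 64.6% of all genes. Scaled by library totals without TMM, the Yeats4 difference turned to 0.03.

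In G&N-L culture Yeats2 was higher in late embryos by 1.57 (SE 0.432), without overlap of libraries. Yeats4 differed by 0.25 (SE 0.272) and Mllt3 by -0.01 (SE 0.136), and their libraries overlapped. edgeR called 0 of 4 members, against 5.97% of all genes higher and 5.87% lower, while 1 member had an unadjusted p under 0.05, against 6049 of 18604 genes, and DESeq2 called 1, against 27.9% of genes, in each case Yeats2. Libraries did not overlap for 1 of 4 members, against 62.5% of all genes. In the test of whether the change with stage differed between cultures, the estimates were 0.17 for Yeats2 (SE 0.688), 0.56 for Yeats4 (SE 0.365) and -0.24 for Mllt3 (SE 0.265); edgeR called 0 of 4 members and 0% of 22287 genes, of which 1683 had an unadjusted p under 0.05, and DESeq2 called 239 genes and 0 members.

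Removal of lactate asks what the readers do when the substrate of lactylation is withdrawn. In late embryos Yeats2 was higher in G&N-L than in G&N by 0.54 on the log2 scale (SE 0.402) and Mllt3 lower by 0.20 (SE 0.203), each without overlap of libraries. Yeats4 differed by 0.31 (SE 0.280), and its libraries overlapped. edgeR called 0 of 4 members and 0% of all genes, with 0 members and 2332 of 19481 genes at an unadjusted p under 0.05, and DESeq2 called 0 members and 934 genes. By a looser criterion, which takes genes whose unadjusted p is under 0.05 and whose fold change exceeds 0.5 on the log2 scale, 0 members passed, against 4.23% of genes higher and 7.63% lower. Libraries did not overlap for 2 of 4 members, against 43.5% of all genes. Without replicate 1 of late G&N, the Mllt3 difference turned to 0.02, and without replicate 1 of late G&N-L the Yeats4 difference turned to -0.05.

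In early embryos, differences between G&N-L and G&N were 0.40 for Yeats2 (SE 0.541), -0.21 for Yeats4 (SE 0.210) and 0.08 for Mllt3 (SE 0.171), all with overlapping libraries. edgeR called 0 of 4 members and 0% of all genes, with 0 members and 784 of 17343 genes at an unadjusted p under 0.05; DESeq2 called 0 members and 38 genes. The looser criterion was met by 0 members, against 1.82% of genes higher and 2.69% lower. Libraries did not overlap for 1 of 4 members (Mllt1, on counts of at most 31), against 32.7% of all genes.

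Lac-CoA addition asks what follows when the acyl donor is returned to embryos without lactate. Yeats2 was 9.01-fold higher in these embryos than in late G&N-L (log2 3.17, SE 0.326), and Mllt3 was 2.20-fold lower (log2 -1.14, SE 0.157). Yeats4 differed by -0.07 (SE 0.267), and its libraries overlapped. Of the 19610 genes tested, 6.30% had a larger change in either direction than Yeats2 and 30.02% had a larger change than Mllt3. With each library left out in turn, the Yeats2 difference stayed between 2.76 and 3.49 and that of Mllt3 between -1.20 and -1.08.

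edgeR called 0 of 4 members in this comparison and 0% of all genes, with 2 members and 2609 genes at an unadjusted p under 0.05, and DESeq2 called those 2 members, Yeats2 and Mllt3, and 1215 genes. The looser criterion was met by 1 member in each direction, against 6.89% of genes higher and 6.29% lower. Libraries did not overlap for 2 of 4 members, against 46.8% of all genes. Embryos with WT mRNA, grown with neither inhibitor nor Lac-CoA named, also had Yeats2 and Mllt3 levels on the same sides of late G&N-L, as given above.

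The H3K18R comparison asks which genes differ when mutant H3 is added beside the embryo's own H3. H3c1 counts were high only in the H3K18R libraries, so the mutation and the amount of H3.1 RNA cannot be told apart. Relative to WT mRNA, Yeats2 differed by -0.61 (SE 0.546) with overlapping libraries, Yeats4 by 0.27 (SE 0.283) and Mllt3 by 0.61 (SE 0.317), the last 2 without overlap. Without WT replicate 2, which had the higher Yeats2 level of its pair, the Yeats2 difference turned to 0.15. Mllt1 fell below the count filter, which left 3 members; edgeR called 0 of them, against 0.00565% of all genes, and 0 had an unadjusted p under 0.05, as did 1141 of 17704 genes. DESeq2 called 0 members and 120 genes. The looser criterion was met by 0 members, against 3.77% of genes higher and 2.67% lower, and libraries did not overlap for 2 of 3 members, against 39% of all genes.

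**Figure D3:**
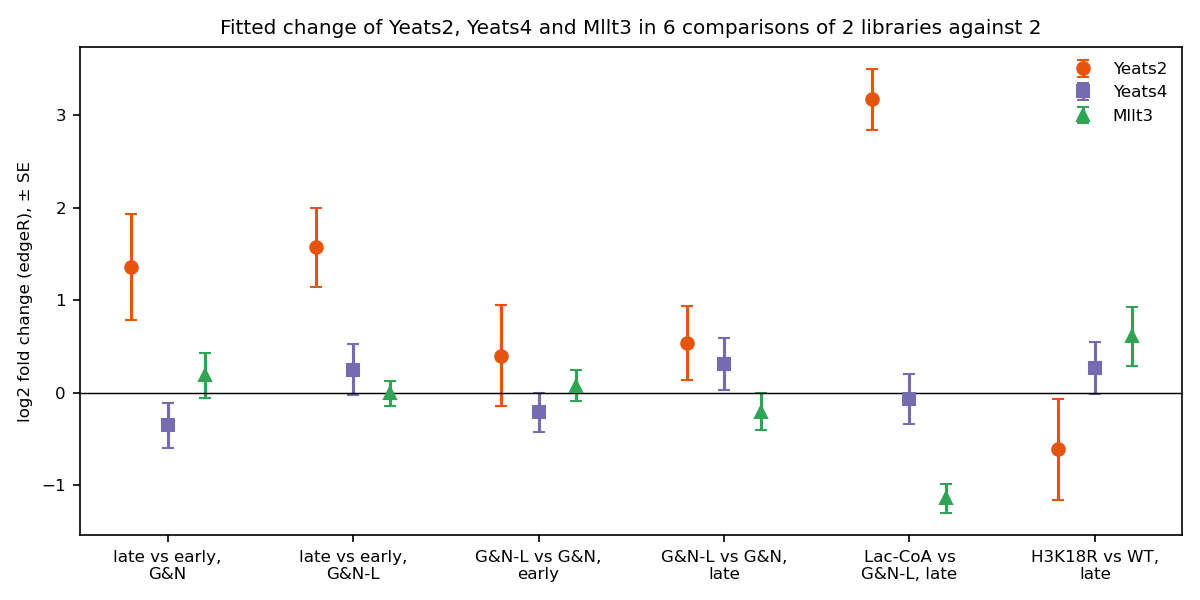
log2 fold change fitted by edgeR (vertical axis, with SE as bars) of Yeats2, Yeats4 and Mllt3 in 6 comparisons (horizontal axis), each of 2 libraries against 2. Yeats2 stands at 3.17 and Mllt3 at -1.14 in the Lac-CoA comparison, whereas Yeats4 stays between -0.35 and 0.31 throughout.

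Transcripts that date the embryo differed between the same groups of libraries. The 10 oocyte-derived transcripts, such as Bmp15 and Nlrp5, summed to between 19601 and 26239 CPM in early libraries, between 12885 and 18878 CPM in late G&N and G&N-L, 13973 and 9744 CPM with Lac-CoA, 3941 and 8096 CPM with H3K18R, and 3527 and 3659 CPM with WT. The 9 transcripts typical of the 2-cell embryo, such as Zfp352 and Obox3, summed to between 461 and 822 CPM in early libraries, between 2238 and 2932 CPM in late G&N and G&N-L, 3493 and 3697 CPM with Lac-CoA, and between 1601 and 2350 CPM with H3 mRNA. The H3K18R and WT libraries were low both in Mllt3 and in oocyte-derived transcripts. The Lac-CoA libraries, with Mllt3 at 319 and 300.2 CPM, had 13973 and 9744 CPM of oocyte-derived transcripts. The late G&N libraries, with Mllt3 at 873 and 691 CPM, had 12885 and 14806 CPM. The 2 Lac-CoA libraries were highest in Yeats2 and in 2-cell transcripts, whereas WT replicate 2, next in Yeats2 at 67.1 CPM, had the lowest 2-cell sum of the late libraries (1601 CPM). In bulk libraries, fewer cells of a kind and less RNA per cell cannot be told apart. The part of embryo progress in the members' levels was not tested.

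**Figure D4:**
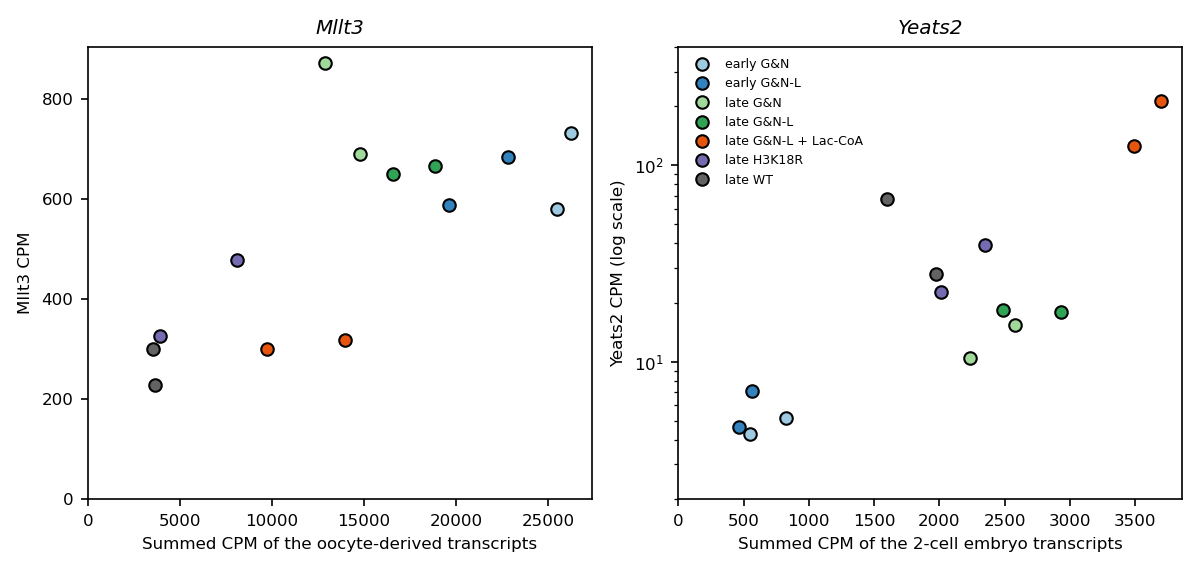
Mllt3 CPM against the summed CPM of 10 oocyte-derived transcripts (left, linear axes) and Yeats2 CPM on a log axis against the summed CPM of 9 transcripts of the 2-cell embryo (right), with a point for each of the 14 libraries, coloured by condition. The 6 libraries described as injected lie low for Mllt3. The 2 Lac-CoA libraries lie at 3493 and 3697 CPM of 2-cell transcripts with the highest Yeats2.

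The partners of the 4 readers were taken from lists of complex members. Their counts between stages are to be read against the shares of all genes called, 8.18% higher and 5.47% lower in G&N culture and 5.97% and 5.87% in G&N-L culture, and several of the lists are so short that 1 gene is near that share. Between stages in G&N culture, in the super elongation complex 3 of 12 partners were higher and 0 lower at an adjusted p under 0.05 (edgeR), and a median log2 difference of 0.79 (from 0.77 to 0.96 with 1 library left out) against 0.08 over all genes. Aff4, its scaffold, rose by 4.10 (SE 0.555, adjusted p = 0.0142), Cdk9, the kinase that releases paused polymerase, by 2.93 (SE 0.601, adjusted p = 0.0364), and Ell2, an elongation factor, by 2.03 (SE 0.428, adjusted p = 0.0391). Aff4 went from 4.65 and 2.66 CPM in early libraries to 87.5 and 41.5 CPM in late ones. In G&N-L culture 0 of 12 passed by adjusted p in edgeR while 6 had an unadjusted p under 0.05 and DESeq2 called 3 higher and 2 lower; Aff4 differed there by 1.50 (SE 0.386, adjusted p = 0.0673).

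Of the 11 ATAC partners, 1 rose and 1 fell in G&N culture, and 0 rose and 2 fell in G&N-L culture. Dr1, a subunit with a histone fold, rose by 3.67 (SE 0.324, adjusted p = 0.00658) with lactate, from 9.26 and 6.37 CPM to 99.6 and 107 CPM. Kat14, an ATAC acetyltransferase, fell in both cultures, with log2 differences of -2.69 with lactate (SE 0.344, adjusted p = 0.0128) and -3.06 without (SE 0.232, adjusted p = 0.00588). Sgf29, a reader of methylated lysine 4, fell by 1.72 without lactate (SE 0.240, adjusted p = 0.0174). The list medians were 0.21 and 0.08, beside 0.08 and 0.15 over all genes, and with 1 library left out they ran from -0.13 to 0.51 and from -0.059 to 0.27.

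For the complexes of YEATS4, 1 TIP60-p400 partner of 16 rose and 2 fell in G&N culture, and 2 rose and 2 fell in G&N-L culture, with medians of -0.33 (from -0.50 to -0.20 with 1 library left out) and -0.39 (from -0.48 to -0.33). Ruvbl1, an ATPase of several remodelling complexes, rose by 2.15 (SE 0.383, adjusted p = 0.0260) with lactate and by 1.31 (SE 0.203, adjusted p = 0.0219) without. Its partner ATPase Ruvbl2 fell, with differences of -2.39 (SE 0.463, adjusted p = 0.0323) and -1.87 (SE 0.262, adjusted p = 0.0178) in the same comparisons. Mbtd1, a reader of methylated lysine, rose by 0.96 (SE 0.147, adjusted p = 0.0214) without lactate, and Dmap1 fell by 4.53 (SE 1.03, adjusted p = 0.0462) with it.

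Of the 6 SRCAP and H2A.Z genes, 2 rose and 0 fell in G&N culture, and 2 rose and 2 fell in G&N-L culture, with medians of 1.40 (from 0.92 to 1.68 with 1 library left out) and 0.86 (from 0.70 to 1.03). H2az1, which encodes the main H2A.Z, rose by 2.73 (SE 0.384, adjusted p = 0.0153) and by 2.49 (SE 0.269, adjusted p = 0.0103), and H2az2, for the other H2A.Z form, rose by 2.31 with lactate (SE 0.292, adjusted p = 0.0126). Without lactate Actr6 fell, at -2.11 (SE 0.250, adjusted p = 0.0126), as did Vps72, the H2A.Z-binding subunit, at -1.88 (SE 0.313, adjusted p = 0.0261). H2az1 stood at 100 and 133 CPM in early and 628 and 1030 CPM in late G&N libraries. The groups did not overlap, but the 2 late libraries lay far apart (SD 286). Without replicate 1 of late G&N, 1 of the 10 named calls in G&N culture remained, that of Dr1, and without replicate 2 of late G&N 2 of 10 remained. Without replicate 1 or replicate 2 of late G&N-L, 1 and 2 of the 9 named calls in G&N-L culture remained.

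Among other readers of acylated lysine, with bromodomains or double PHD fingers, edgeR called 0 of 12 tested in G&N culture and 0 of 11 in G&N-L culture, while 3 and 5 had an unadjusted p under 0.05 and DESeq2 called 2 and 5. Of the 2 DOT1L complex genes tested, edgeR called 0 in both cultures, with 1 at an unadjusted p under 0.05 in each (Dot1l, 1.35, SE 0.521, and 1.14, SE 0.364) and 1 called by DESeq2 in each. Of the genes that MLLT1 and MLLT3 are known to act on in leukaemia, 0 of 7 were called in G&N culture at any of these levels, and 1 of 5 rose in G&N-L culture, Hoxa9, from 1 and 0 counts to 156 and 109 counts.

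Removing lactate from late embryos gave 0 adjusted calls in any of these lists in edgeR, so partners are given by the looser criterion, which 4.23% of all genes passed higher and 7.63% lower. At an unadjusted p under 0.05 stood 4 super elongation, 2 ATAC, 3 TIP60-p400 and 2 SRCAP genes and 4 other readers, of which DESeq2 called 2, 1, 0, 2 and 1. In the super elongation complex 4 of 12 partners were lower by it and 0 higher, with a median of -0.69 against -0.02 over all genes. Cdk9 was at 8.09 and 3.68 CPM in G&N-L and at 21.0 and 43.2 CPM in G&N, a log2 difference of -2.38 (SE 0.599, adjusted p = 0.324). Aff4 differed by -1.42 (SE 0.443, adjusted p = 0.335) and Ccnt1, the cyclin of CDK9, by -0.93 (SE 0.268, adjusted p = 0.332). Both super elongation genes that DESeq2 called were lower.

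In the ATAC list 2 of 11 were lower by that criterion and 0 higher, with a median of -0.23. Dr1 was at 29.6 and 28.5 CPM without lactate and at 99.6 and 107 CPM with it, a log2 difference of -1.78 (SE 0.233, adjusted p = 0.311). Mbip, another ATAC subunit, differed by -1.34 (SE 0.438, adjusted p = 0.340). In the TIP60-p400 list 2 of 16 were lower (Brd8, -1.11, SE 0.314; Ruvbl1, -0.97, SE 0.300) and 1 was higher, Dmap1, with 183 and 175 counts against 27 and 8.

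The SRCAP and H2A.Z list had 2 of 6 lower (H2az2, -1.10, SE 0.242; Actr6, -1.81, SE 0.450) and a median of -0.82. Among the other acyl-lysine readers 3 of 12 were lower and 0 higher, with a median of -0.28. With 1 library left out in turn, the medians in late embryos ran from -1.02 to -0.36 for the super elongation list, from -0.71 to -0.03 for ATAC, from -0.36 to 0.12 for TIP60-p400, from -1.05 to -0.72 for SRCAP and from -0.45 to 0.0067 for the other readers, which is no stable direction for TIP60-p400 or the other readers. The other readers past the criterion were Taf1 (-2.18, SE 0.410), the double bromodomain subunit of TFIID, Brd9 (-1.12, SE 0.333), of a BAF complex, and Brd2 (-1.34, SE 0.479), a BET protein. Of 7 leukaemia targets 1 was higher, Hoxa9, with 156 and 109 counts against 11 and 6. In early embryos 0 list genes were called by adjusted p in edgeR and 0 by DESeq2, and by the looser criterion 1 of 12 super elongation partners was lower, Cdk9 (-3.22, SE 0.998), with 1 of 6 SRCAP genes and 2 of 6 leukaemia targets also lower.

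In the Lac-CoA comparison the same late G&N-L libraries served as the reference, so its values are set beside those above and not counted as an independent return. Dr1 was at 84.5 and 91.1 CPM with Lac-CoA (1.55 above G&N-L, SE 0.226), and Ccnt1 at 90.6 and 57.2 CPM (1.19, SE 0.324), against 33.8 and 29.0 CPM in late G&N-L and 56.8 and 66.9 CPM in late G&N. Ruvbl1 was higher by 1.03 (SE 0.202), H2az2 by 0.94 (SE 0.199), H2az1 by 0.68 (SE 0.210) and Actr6 by 1.26 (SE 0.478). By the looser criterion 1 of 12 super elongation partners was higher and 1 lower (Aff2, at 0 counts in both Lac-CoA libraries and 68 and 23 in G&N-L), 1 of 11 ATAC, 1 of 16 TIP60-p400 and 3 of 6 SRCAP genes were higher and 0 lower. The list medians were 0.35, 0.19, -0.04 and 0.81 in that order, against -0.01 over all genes, and ran from 0.17 to 0.64, from 0.012 to 0.36, from -0.26 to 0.093 and from 0.38 to 0.98 with 1 library left out. The looser criterion was met by 6.89% of all genes higher and 6.29% lower.

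Among the other acyl-lysine readers Dpf2, a double PHD finger protein, was higher by 1.98 with Lac-CoA (SE 0.572), and Kat6b and the germ-cell protein Brdt were lower by 0.76 (SE 0.212) and 0.68 (SE 0.194). edgeR called 0 genes of any partner list by adjusted p here, while 2 super elongation, 1 ATAC, 1 TIP60-p400 and 3 SRCAP genes and 3 other readers had an unadjusted p under 0.05, and DESeq2 called 1 gene of each of the first 4 lists and 2 other readers. In the H3K18R comparison edgeR likewise called 0, and the looser criterion was met by 1 partner gene, Actr6, at 199 and 154 CPM with H3K18R and 329 and 499 CPM with WT (-1.23, SE 0.328, adjusted p = 0.734). DESeq2 called 1 gene of its list, and 1 had an unadjusted p under 0.05.

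**Figure D5:**
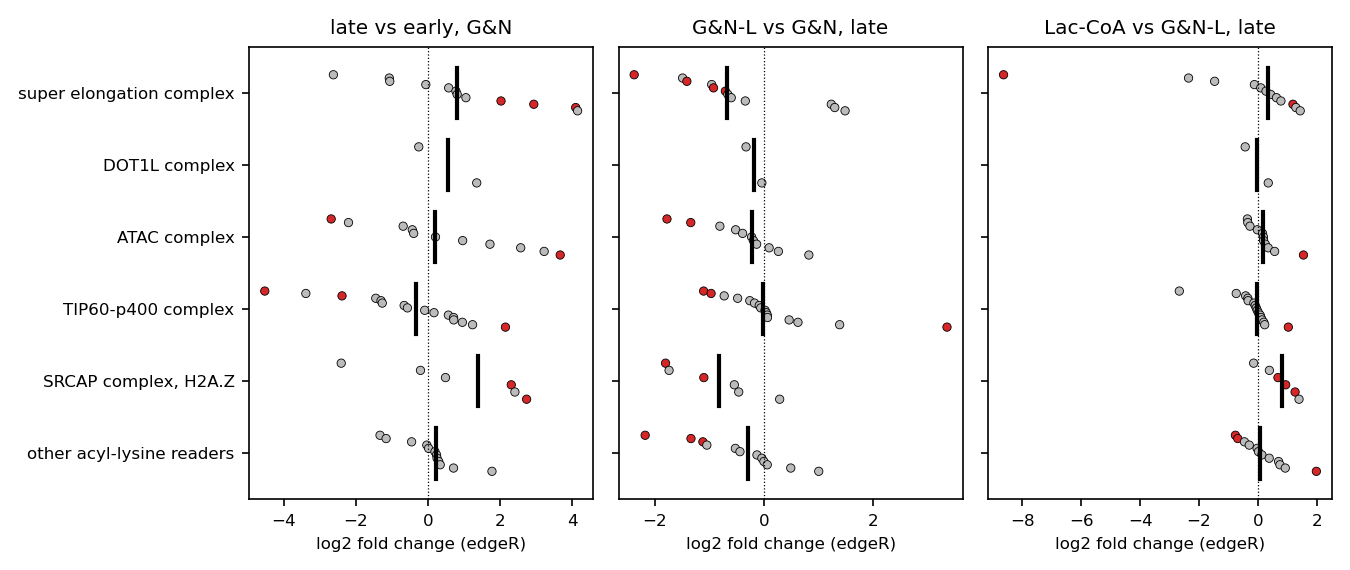
log2 fold change fitted by edgeR (horizontal axis) of each tested partner gene (points) in 6 lists (rows) for 3 comparisons, with black bars at list medians. Red marks an adjusted p under 0.05 in the stage comparison and the looser criterion in the other panels, and the super elongation list has a median of 0.79 on the left, -0.69 in the middle and 0.35 on the right.

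The genes whose log2 CPM followed each reader most closely over the 14 libraries are given as a description, since libraries share conditions and depth. For Yeats2 they were Gm6123 (Pearson r = 0.913), Icam1 (0.910), an adhesion molecule, and B130021K23Rik (0.908), among 25041 genes. Icam1 had a mean of 5.69 CPM with Lac-CoA, 2.93 CPM with WT mRNA and 0.768 CPM in late G&N-L. Yeats4 was followed most closely by Tfdp1 (0.944), a partner of E2F factors, Zfp511 (0.928) and Shmt2 (0.904), a mitochondrial enzyme of serine metabolism. Mllt3 was followed by 4930556G22Rik (0.953), Lrrfip1 (0.936) and Gm30239 (0.934). Mllt1, on its few counts, was followed by genes that include Gm1141 (0.848) and Cgref1 (0.794). Some of these genes were low. Group means reached only 1.32 CPM for 4930556G22Rik, with 0 for Lac-CoA and WT. They reached 5.44 CPM for Gm30239 and 5.76 CPM for Gm6123. Partners from each reader's own complexes went both ways. With Mllt3, r ran from -0.716 (Ccnt1) to 0.871 (Mllt10 of the DOT1L complex). With Yeats4 it ran from -0.810 (Actr6) to 0.836 (Epc1 of TIP60-p400), and with Yeats2 from -0.725 (Kat14) to 0.739 (Dr1). Between the readers themselves r was -0.79 for Yeats2 with Mllt3 and 0.50 for Yeats4 with Mllt3.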

How the data were processed

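Reads were checked with FastQC and trimmed with Trim Galore by the authors, HISAT2 placed them on mm39, and the deposited values are raw counts per gene from featureCounts; tool versions, annotation release and strand setting are not given in the sources used here. RNA came from 14 libraries, 2 per condition; the protocol mentions more replicates, and only these 14 were analysed here. The mutant columns are named K18A where titles say H3K18R; the titles were followed. Totals of 20350427 to 61275465 counts set the counting error, which is the only error that floors of 3 counts cover.

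From the deposited counts, CPM were computed on TMM library sizes over all 14 libraries. Each comparison was fitted with edgeR 4.0.16 (R 4.3.3), quasi-likelihood test, filterByExpr defaults, TMM and Benjamini-Hochberg adjustment over all genes tested, on its own 4 libraries, and the stage by lactate interaction on 8. Calls needed an adjusted p under 0.05. A permutation test of 2 against 2 cannot go below 0.333 (exact, two-sided) and was not used. DESeq2 1.42.0 on the same genes was an alternative, as were DESeq2 size factors, library totals, other count filters, all 14 libraries in 1 fit, a replicate block and leaving out each library. Scripts were tested on simulated data. Fitted fold changes use edgeR's prior count of 0.125, and log2 CPM for correlations a prior count of 2.

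The 4 genes and the 11 gene lists were chosen with earlier results of these data known. Named genes were the 4 members, up to 3 genes per list with the smallest p among those called (or past the looser criterion), and the 3 genes most correlated with each member, of which 1 is not reported here; Bmp15, Nlrp5, Zfp352 and Obox3 are named as list examples. GENCODE vM39 held 56236 of the 56923 gene IDs and gave lengths; promoter windows came from RefSeq, GRCm38.p6, matched by symbol for all 4 genes.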

Additional observations from a re-analysis of the deposited data

How the results depend on the processing

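Of 305 alternative values of the 27 fold changes of Yeats2, Yeats4, Mllt1 and Mllt3, 271 kept direction and side of the threshold. Another 7 became calls and 27 changed sign. No member was called in the main fits, so no call could be lost. With 2 libraries a condition, edgeR's adjusted calls were the least stable quantity. DESeq2 called 934 genes for late lactate removal, 38 for early removal, 1215 for Lac-CoA (2 members), 120 for H3K18R, 5937 and 5182 for stage with and without lactate (1 member without) and 239 for the interaction. Without a filter on low counts edgeR called 317, 42, 3 (1 member), 78 and 361 genes for late removal, early removal, Lac-CoA, H3K18R and interaction and 5060 for stage with lactate. With at least 10 counts in every library it called 114 for late removal, 2 for Lac-CoA (1 member) and 1 member for stage without lactate, as did library totals. With all 14 libraries in 1 fit it called 11, 4, 9 and 1 genes for late removal, early removal, H3K18R and interaction. Genes past the looser criterion numbered 1232 for early removal and 1841 for H3K18R without the filter, and 1812 for H3K18R in the joint fit.

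Changes of sign, apart from those with a library left out, ended at values from -0.046 to 0.36. Mllt3 changed sign for early removal in the joint fit (-0.046). With library totals, Yeats4 changed sign for Lac-CoA (0.040) and stage with lactate (0.028), and Mllt1 for stage without lactate (0.28). For stage without lactate, Mllt3 changed sign with DESeq2 (0.0498), DESeq2 size factors in edgeR (0.0498), library totals (0.36), the count minimum (0.12) and the joint fit (0.051). Library totals leave out the TMM factors. These were 0.826 to 0.940 in early libraries and 0.980 to 1.14 in late G&N, G&N-L and Lac-CoA libraries. The cause of the changes of sign was not tested. Leaving out 1 library in turn gave, for late removal, -0.048 to 0.59 for Yeats4, -6.73 to 0.15 for Mllt1 and -0.32 to 0.022 for Mllt3; for Lac-CoA, -0.34 to 0.27 for Yeats4 and 1655 to 2708 genes past the looser criterion; and for H3K18R, -1.10 to 0.15 for Yeats2 (without WT replicate 1 and replicate 2) and 671 to 3004 genes (without WT replicate 2 and H3K18R replicate 1). For stage with lactate it gave -7.67 to 0.19 for Mllt1, -0.015 to 0.37 for Mllt3 and 220 to 2446 called genes, the lowest without late G&N replicate 1. For stage without lactate it gave -0.074 to 0.58 for Yeats4, -5.66 to 0.93 for Mllt1, -0.081 to 0.045 for Mllt3 and 335 to 1393 called genes, the lowest without late G&N-L replicate 1. For the interaction it gave -0.076 to 0.46 for Yeats2, -5.18 to 7.33 for Mllt1 and 0 to 26 called genes. Of 642 alternative values of 59 partner fold changes, 534 kept direction and side, 59 lost a call, 49 became calls and 0 changed sign.

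The same replicate numbers occur in each condition. Between the conditions compared, deviations of same-numbered libraries correlated only between -0.040 and 0.020. These low values cannot show whether same-numbered libraries shared a collection or batch, which nothing states. With the replicate block, the counts past the looser criterion were 1540 for late removal, 301 for early removal and 618 for H3K18R, and 1391 genes were called for stage without lactate; 0 members were called in any of the 7 comparisons. Depth limits Mllt1 most, whose counts never exceeded 56.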
